A study of Mus musculus with 24 samples.

Results

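White adipose tissue (WAT) was compared with brown adipose tissue (BAT) of mice kept on a low-fat diet, gene by gene. The comparison uses 8 of the 24 arrays of the study: 4 of WAT and 4 of BAT, chosen by the tissue and the diet that their titles give. The animals were male C57Bl/6J mice, and the labels state neither their age nor the depot from which the white fat came. Both tissues came from mice fed the same low-fat diet, which serves as the control diet of the study. The other 16 arrays hold the same tissues after a high-fat diet with corn oil or a high-fat diet with eicosapentaenoic and docosahexaenoic acid (EPA/DHA), 4 arrays per tissue and diet. They enter here only through the shared estimate of the spread and through the test of whether the tissue difference was another one on those diets. Mice were chosen for the arrays as typical of their diet group in body weight and plasma lipids, and are not a random draw. The labels do not say whether a WAT and a BAT array of the same number came from 1 mouse. The text on RNA extraction names skeletal muscle as the source, although each tissue label names adipose tissue.

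White fat stores energy as triglyceride in cells with 1 large droplet and releases hormones such as leptin. Brown fat holds many mitochondria and burns fatty acids to make heat, because uncoupling protein 1 lets protons return across the inner mitochondrial membrane without making ATP. Cold, through noradrenaline and cyclic AMP, drives that heat production. Both tissues also hold blood vessels, fibroblasts, immune cells and nerves. In such bulk tissue fewer cells of a type and less RNA per cell cannot be told apart.

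Every value below is an array signal on a log2 scale as deposited, so 1 unit is a doubling if the scale is a plain log2, which the sources do not state. Signals ran between 6.95 and 14.79, and values close to either end understate differences. The signals had been quantile-normalised, which removes any difference in total RNA signal between tissues. Each gene is represented by its brightest probe, and every difference is WAT minus BAT, with its standard error (SE) from limma and n = 4 arrays per tissue. A gene is called where the Benjamini-Hochberg adjusted p is below 0.05. A probe counts as at background in a tissue where all 4 arrays lie at or below the 95th percentile of 1287 olfactory receptor probes on the same array, which was 7.15 to 7.22. That limit was set after the data had been seen, and such a gene gets a bound ("at least") in place of a fold, on the assumption of a plain log2 scale.

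Of 14262 genes tested, 6236 (43.7%) differed between the tissues: 3323 (23.3%) were higher in WAT and 2913 (20.4%) were lower. A difference of at least 1 log2 unit was called for 1154 genes (8.09%), of which 616 (4.32%) were higher in WAT and 538 (3.77%) lower. At 3 units or more there were 37 genes higher and 29 lower in WAT. In 5782 genes (40.5%) the 4 WAT and 4 BAT values did not overlap. The median difference over all genes tested was -0.006, so calls in both directions were made around a centre near 0. Since a call is so common here, the counts below are read against these shares. Arrays of a tissue correlated with the others of their group at a mean r of 0.983 to 0.992, except BAT replicate 2 at 0.966, and with the other tissue at 0.879 to 0.908.

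The tissue labels were checked against defining genes. Ucp1, which encodes the uncoupling protein of brown fat, had signals of 8.02, 7.08, 7.09 and 7.21 in WAT, against 14.15, 14.12, 14.15 and 14.23 in BAT. All BAT arrays lay near the top of the scale, and in WAT only 2 of 4 arrays were above background, with replicate 1 above the rest. The difference was -6.81 ± 0.57 (SE; adjusted p 5.65e-09), the largest fall of all genes named. Since BAT lay near the top of the scale and 2 WAT arrays at background, no fold is given. Lep, which encodes leptin, had 13.31, 14.36, 14.14 and 13.21 in WAT, against 9.76, 8.36, 7.79 and 9.05 in BAT. The groups lay over 3 units apart at their nearest arrays, and the BAT arrays spread more than the WAT arrays. Its difference was 5.02 ± 0.38 (adjusted p 1.44e-09). Adipoq, the adipocyte hormone adiponectin, was high in every array, with 14.14, 14.35, 14.37 and 14.39 in WAT and 13.44, 13.59, 13.41 and 13.50 in BAT. It was higher in WAT by 0.83 ± 0.09. The brightest probe of Fabp4, a standard adipocyte marker, read only 7.23 to 7.52 in WAT and 7.35 to 7.96 in BAT, close to the floor of the scale in both tissues.

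**Figure D1:**
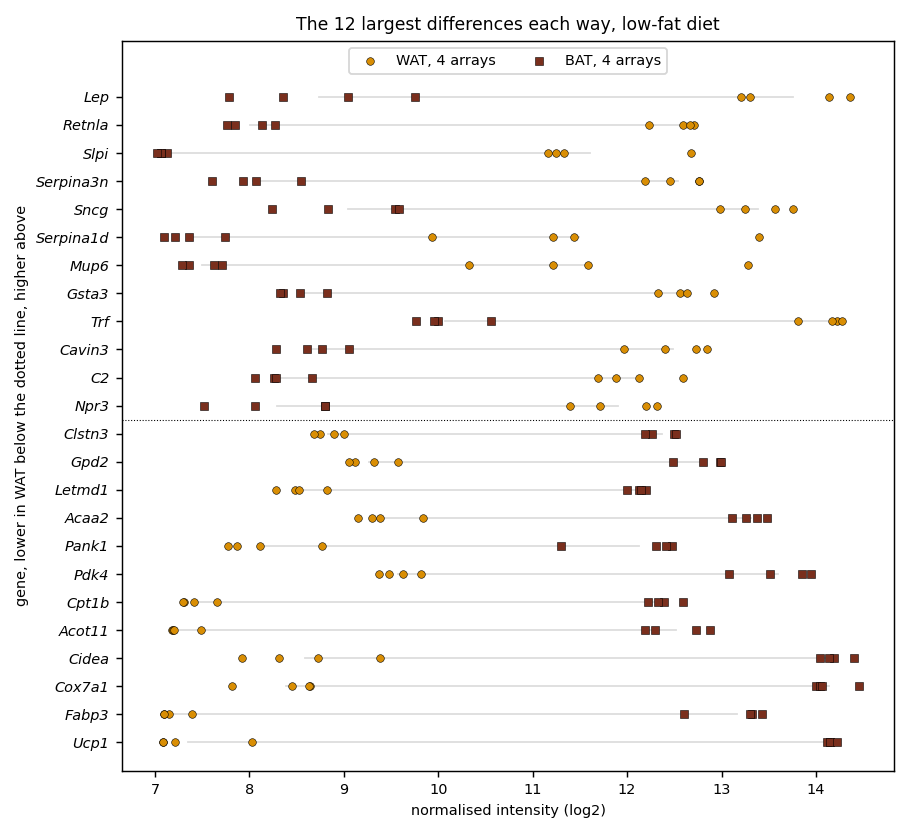
Signal (log2, horizontal axis) of the 12 genes with the largest rise and the 12 with the largest fall in WAT, outside the liver and muscle marker lists, 1 gene per line; circles are the 4 WAT arrays, squares the 4 BAT arrays, and the grey line joins the group means. The WAT and BAT arrays of each gene do not overlap, and Serpina1d and Mup6 spread by about 3 units or more over the WAT arrays.

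Outside the liver and muscle lists, the genes with the largest differences in favour of WAT included the following. Retnla, a cysteine-rich protein secreted by fat and by alternatively activated macrophages, had 12.23, 12.59, 12.71 and 12.66 in WAT, against 8.14, 7.85, 8.27 and 7.76 in BAT. Its 2 groups were tight and far apart, with a difference of 4.54 ± 0.24. Slpi, a secreted inhibitor of leukocyte proteases, had 12.68, 11.33, 11.16 and 11.25 in WAT, against 7.02 to 7.13 in BAT. All 4 BAT arrays were at background, so Slpi was at least 21.2-fold higher in WAT, and WAT replicate 1 stood above the other WAT arrays. Trf, the iron carrier transferrin, differed by 4.05 ± 0.23, and the protease inhibitor gene Serpina3n by 4.50 ± 0.23. Sncg, a synuclein found in neurons and in fat cells, had 13.25, 13.76, 13.57 and 12.98 in WAT, against 9.54, 8.83, 8.24 and 9.58 in BAT, a difference of 4.34 ± 0.26. Npr3, the clearance receptor for natriuretic peptides, was higher in WAT by 3.61 ± 0.31, and Cavin3, a component of caveolae, by 3.81 ± 0.21. Gsta3, a glutathione transferase, was higher by 4.10 ± 0.23. Serpina1d and Mup6 also stood among the 12 largest rises, but their probes may read near-identical family members, and both followed the liver transcripts described further on.

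The genes with the largest differences in favour of BAT included the following. Fabp3, a carrier of fatty acids in heart, muscle and brown fat, had 7.39, 7.10, 7.15 and 7.10 in WAT, against 13.43, 12.60, 13.32 and 13.30 in BAT. Only 1 of the 4 WAT arrays was above background, and the difference was -5.98 ± 0.39. Cox7a1, a cytochrome c oxidase subunit of heart, muscle and brown fat, had 8.64, 8.45, 8.64 and 7.81 in WAT, against 14.001, 14.459, 14.043 and 14.068 in BAT, a difference of -5.76 ± 0.42. Cidea, a lipid droplet protein of brown fat, had 9.38, 7.92, 8.31 and 8.72 in WAT, against 14.19, 14.04, 14.40 and 14.14 in BAT. The WAT arrays varied by 1.45 units while the BAT arrays were alike, and the difference was -5.61 ± 0.52. Cpt1b, which loads fatty acids onto carnitine for import into mitochondria, had 7.66, 7.31, 7.41 and 7.29 in WAT, against 12.39, 12.59, 12.22 and 12.33 in BAT, a difference of -4.97 ± 0.30. Acot11, a thioesterase that splits acyl-CoA, fell by 5.26 ± 0.27 in WAT, and Acaa2, the last enzyme of the fatty acid oxidation spiral, fell by 3.89 ± 0.23. Pdk4, which restrains pyruvate entry into the citric acid cycle, fell by 4.02 ± 0.39. Gpd2, the mitochondrial arm of the glycerol phosphate shuttle, fell by 3.55 ± 0.17. Letmd1, an inner mitochondrial membrane protein, fell by 3.59 ± 0.16. Pank1, the first enzyme of coenzyme A synthesis, fell by 3.99 ± 0.34, and Clstn3 fell by 3.53 ± 0.18.

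The promoters of 5 genes that the results turn on are shown because they hold motifs whose frequency differs among the gene groups below. Each is 300 bases, 250 before and 50 after the RefSeq start on GRCm38.p6, printed 5′ to 3′ on the strand of the gene. Capitals mark only the motif named here for each gene, in either orientation. They mark TTGCNNAA, a C/EBP motif, in Lep and Retnla, and CCGGAAG, an Ets motif, in Letmd1. In Ogdh and Uqcrc1 they mark CGCANGCG, the inner letters of the motif of nuclear respiratory factor 1 (NRF1). Other motifs counted below also match but stand in small letters: C/EBP in Ogdh, NRF1 in Letmd1 and TATAAA in Retnla. Lep lies at chr6:29059971-29060270 (+), Retnla at chr16:48842359-48842658 (+), Ogdh at chr11:6292308-6292607 (+), Uqcrc1 at chr9:108936398-108936697 (+) and Letmd1 at chr15:100468761-100469060 (+).
Lep: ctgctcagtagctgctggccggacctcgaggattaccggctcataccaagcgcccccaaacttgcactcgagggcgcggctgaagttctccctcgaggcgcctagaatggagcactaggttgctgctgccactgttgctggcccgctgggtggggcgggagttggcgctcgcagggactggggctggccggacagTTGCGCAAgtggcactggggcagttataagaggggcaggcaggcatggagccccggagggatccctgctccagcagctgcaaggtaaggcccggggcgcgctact
Retnla: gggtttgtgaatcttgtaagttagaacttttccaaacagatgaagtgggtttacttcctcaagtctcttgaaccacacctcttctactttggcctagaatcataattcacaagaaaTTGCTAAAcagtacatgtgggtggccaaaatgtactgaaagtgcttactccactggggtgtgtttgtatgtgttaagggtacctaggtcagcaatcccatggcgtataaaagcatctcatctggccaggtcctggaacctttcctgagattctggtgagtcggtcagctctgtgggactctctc
Ogdh: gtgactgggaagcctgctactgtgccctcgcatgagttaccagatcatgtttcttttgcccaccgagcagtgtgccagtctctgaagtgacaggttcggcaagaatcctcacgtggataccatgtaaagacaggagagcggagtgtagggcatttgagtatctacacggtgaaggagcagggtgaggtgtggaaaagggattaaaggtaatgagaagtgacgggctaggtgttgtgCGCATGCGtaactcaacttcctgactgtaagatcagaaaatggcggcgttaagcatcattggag
Uqcrc1: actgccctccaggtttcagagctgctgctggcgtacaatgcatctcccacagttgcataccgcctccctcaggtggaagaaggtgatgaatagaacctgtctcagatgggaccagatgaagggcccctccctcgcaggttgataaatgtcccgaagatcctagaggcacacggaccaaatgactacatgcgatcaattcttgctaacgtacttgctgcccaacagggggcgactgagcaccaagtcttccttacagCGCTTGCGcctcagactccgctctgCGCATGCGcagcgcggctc
Letmd1: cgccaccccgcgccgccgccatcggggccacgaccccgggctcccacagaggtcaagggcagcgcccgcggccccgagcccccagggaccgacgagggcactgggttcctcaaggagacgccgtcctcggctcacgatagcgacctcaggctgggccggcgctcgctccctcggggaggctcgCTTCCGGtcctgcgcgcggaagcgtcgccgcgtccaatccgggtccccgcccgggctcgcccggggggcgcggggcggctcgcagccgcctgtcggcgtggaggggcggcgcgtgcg
The motif in capitals starts 55 bases before the start site in Lep, 134 before it in Retnla, 14 before it in Ogdh and 67 before it in Letmd1. Uqcrc1 holds 2 NRF1 matches just after its start. A match describes letters in a window and is no evidence that a factor binds.

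The genes that define brown fat were lower in WAT almost without exception. Of 28 brown identity and thermogenesis genes tested, 26 were lower in WAT and 0 higher, with a median difference of -2.35, against -0.006 over all genes. The list was written from knowledge of brown fat, with earlier results of these data known. The summed picture was even across arrays: the mean over the list was 7.748 to 7.995 per WAT array and 10.32 to 10.64 per BAT array. Among regulators, Ppargc1a, the coactivator that drives mitochondrial biogenesis, had 7.56, 7.48, 7.46 and 7.56 in WAT, against 10.69, 9.60, 12.19 and 10.94 in BAT. The WAT arrays were nearly flat and the BAT arrays spanned over 2 units, with a difference of -3.34 ± 0.46. Its relative Ppargc1b fell by 3.02 ± 0.18 in WAT. Kcnk3, a potassium channel of brown adipocytes, fell by 2.64 ± 0.17, and Prdm16, a transcription regulator of brown fat identity, fell by 0.69 ± 0.10. These 4 genes lie outside the naming rule and were picked after their values were seen. The nuclear receptors that work with these coactivators were lower too, with differences of -2.06 ± 0.09 for Esrra, -1.35 ± 0.14 for Esrrg and -1.62 ± 0.13 for Ppara. Pparg, the receptor that all fat cells need, overlapped between tissues (-0.31 ± 0.18, adjusted p 0.195). Dio2, which activates thyroid hormone, was at background in WAT and at least 2.08-fold lower there, with 8.15, 7.46, 8.92 and 8.29 in BAT. The 2 members not called were Irf4 and Bmp8b, the second at background in both tissues.

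Genes that relay the noradrenaline signal were called in part. Of 17 listed genes with a named probe 15 were tested, of which 6 were lower and 0 higher in WAT, and the median difference was -0.17. In 10 of the 15 the lowest BAT value was in replicate 2, without which 8 were lower and 1 higher, with a median of -0.34. Without WAT replicate 1, BAT replicate 1, BAT replicate 3 or BAT replicate 4, 5 were lower and 0 or 1 higher, with medians of -0.07, -0.11, -0.07 and -0.09. Adcy3, an adenylyl cyclase that makes cyclic AMP, had 7.30, 7.37, 7.37 and 7.41 in WAT, against 8.79, 9.04, 9.28 and 8.75 in BAT, a difference of -1.60 ± 0.12. Gnas, the stimulatory G protein subunit, fell by 1.35 ± 0.11 in WAT, and Prkaca, a catalytic subunit of protein kinase A, by 1.15 ± 0.07. Rgs2, which shortens G protein signals, fell by 0.68 ± 0.15.

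The respiratory chain was lower in WAT as a whole set. All 34 complex I genes tested were lower in WAT, with a median of -1.43. Of 23 genes of complexes II to IV, 22 were lower and 0 higher, with a median of -1.31, and Uqcrfs1 read near background in both tissues. Uqcrc1, a core protein of complex III, had 10.96, 11.12, 11.03 and 10.99 in WAT, against 13.57, 13.81, 13.32 and 13.55 in BAT, a difference of -2.54 ± 0.11. Cyc1, the cytochrome of complex III, fell by 2.52 ± 0.14, and Sdhb, the iron-sulfur subunit of complex II, by 2.36 ± 0.13. Sdhd, a membrane anchor of complex II, had 8.40, 8.17, 8.47 and 8.43 in WAT, against 10.33, 10.84, 10.65 and 10.68 in BAT, a difference of -2.26 ± 0.12. Among complex I subunits, Ndufb5 fell by 2.20 ± 0.16 and Ndufs8 by 2.19 ± 0.08. Replicates of a tissue lay close together, as the list mean of complex I lay within 11.28 to 11.33 over the WAT arrays and 12.65 to 12.75 over the BAT arrays.

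ATP synthase was less uniform. Of 15 genes, 11 were lower in WAT, 3 were higher and the median was -1.01. Atp5d and Atp5a1, subunits of the catalytic head, both fell by 1.99 in WAT, with SE of 0.10 and 0.14. Atpif1, which encodes the inhibitor of the enzyme, had 10.94, 11.35, 11.19 and 11.04 in WAT, against 9.60, 9.89, 9.62 and 9.35 in BAT. The inhibitor was thus higher in WAT by 1.52 ± 0.11, while most of the enzyme's subunits were lower there. Atp5g3, 1 of several genes for the membrane ring subunit, was higher in WAT by 0.47 ± 0.08, while its relative Atp5g2 fell by 1.21 ± 0.09. The third, Atp5j, rests on probes that disagree, with 1.06 from the brightest and -1.55 from the dimmest.

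Fuel oxidation followed the respiratory chain. Of 17 citric acid cycle genes 15 were lower in WAT and 0 higher, with a median of -1.84. Sdha, Sdhb, Sdhc and Sdhd are also on the list of complexes II to IV. Ogdh, the entry subunit of the oxoglutarate dehydrogenase complex, fell by 2.63 ± 0.11 in WAT, and its partner Dlst fell by 2.24 ± 0.09. Of 20 genes of mitochondrial fatty acid oxidation 18 were lower and 0 higher, with a median of -1.39. Acadvl, the first dehydrogenase for very long chains, had 10.56, 10.61, 10.37 and 10.54 in WAT, against 13.69, 13.44, 13.48 and 13.54 in BAT, a difference of -3.02 ± 0.16. Slc25a20, the carnitine carrier of the inner membrane, fell by 2.75 ± 0.10. The 4 probes of Acaa2 gave -3.89, -3.88, -3.83 and -3.36.

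The ribosomes of the 2 compartments went opposite ways. Of 73 mitochondrial ribosome genes, 66 were lower in WAT and 1, Mrps6, was higher, with a median of -0.88. Mrpl34 had 9.35, 9.14, 9.30 and 9.08 in WAT, against 11.43, 11.87, 11.34 and 11.38 in BAT, a difference of -2.28 ± 0.09. Of 47 cytosolic ribosome genes, 35 were higher in WAT and 2 (Rpl19 and Rpl7a) lower, with a median of 0.40. Rps4x had 13.24, 13.16, 13.24 and 13.24 in WAT, against 12.24, 11.67, 12.17 and 12.13 in BAT, a difference of 1.17 ± 0.10. Rps12 was higher by 1.07 ± 0.09 and Rpl39 by 1.02 ± 0.08. Such genes have many pseudogenes with like sequence, and the probes were not aligned here. The values are relative to a normalised total and give no amount per cell.

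**Figure D2:**
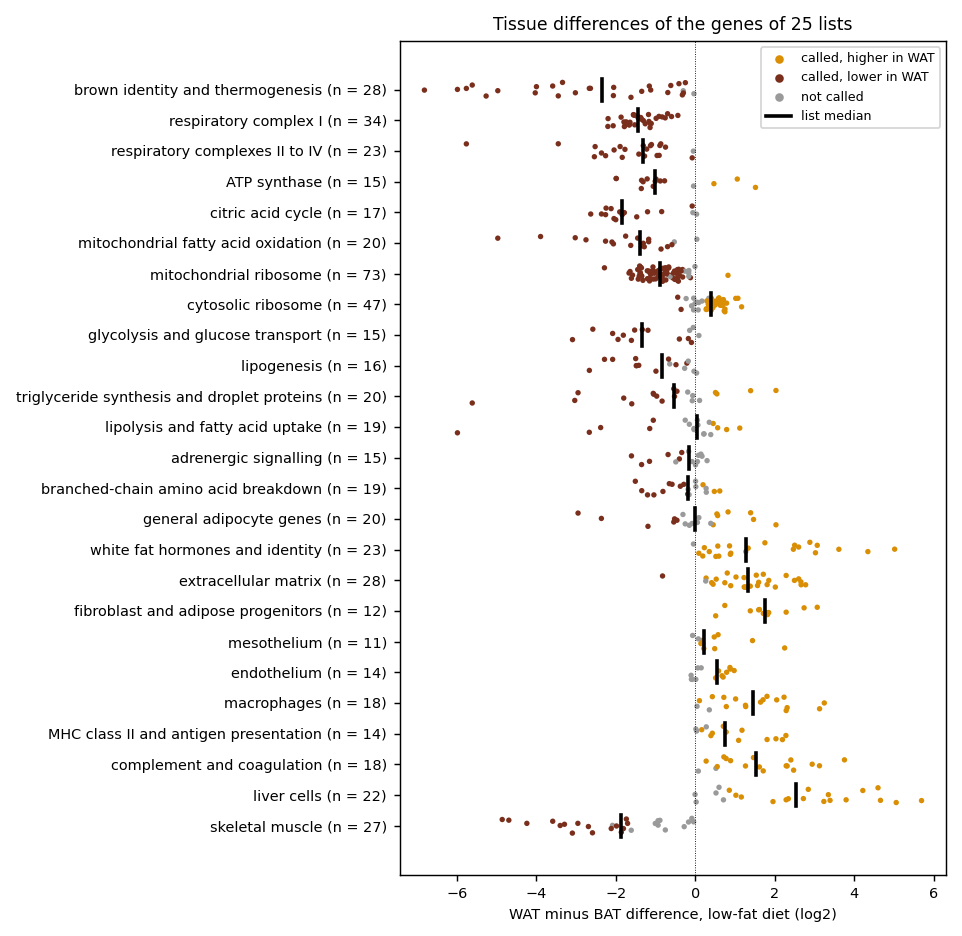
Difference WAT minus BAT (log2 signal) of every tested member of the gene lists, 1 point per gene and 1 row per list, coloured by direction where called and grey where not, with a bar at the list median. Mitochondrial lists lie mostly left of 0, while the matrix, fibroblast, complement and macrophage lists lie mostly right of it.

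The NRF1 letters CGCANGCG, searched on both strands like the other motifs, stood in 9.22% of the 27025 promoters of the table and in 16.1% of the 11449 promoters of genes tested. They stood in 21.9% of 447 promoters of genes lower in WAT by at least 1 unit and in 7.84% of 485 promoters of genes higher by as much. Among mitochondrial groups they were found in 10 of 14 ATP synthase promoters, 7 of 17 of complexes II to IV, 9 of 32 of complex I, 18 of 64 of the mitochondrial ribosome, 6 of 15 of the citric acid cycle and 3 of 17 of mitochondrial fatty acid oxidation. They were found in 1 of 17 matrix promoters and 0 of 12 complement promoters. White identity genes had them in 3 of 18 promoters and brown identity genes in 4 of 20. The Ets motif CCGGAAG stood in 16.6% of tested promoters and in 24 of 64 mitochondrial ribosome promoters, 6 of 17 of complexes II to IV, 5 of 14 of ATP synthase and 5 of 15 of the citric acid cycle. It stood in 4 of 32 promoters of complex I and 2 of 17 of fatty acid oxidation. The C/EBP motif TTGCNNAA stood in 11% of tested promoters, in 15.3% of those of genes higher in WAT by at least 1 unit and in 9.84% of those of genes lower by as much. It stood in 5 of 18 promoters of the white fat identity genes, but also in 4 of 17 of complexes II to IV and 3 of 15 of the citric acid cycle, which were lower in WAT. The letters TATAAA stood in 16.3% of the promoters of genes higher in WAT by at least 1 unit. Genes lower by as much had them in 7.61% and all tested promoters in 11.4%. Both identity lists lay above that, with 5 of 20 brown and 4 of 18 white identity promoters. The half-site AAGGTCA of estrogen-related receptors stood in 4.23% of tested promoters. Its share was 6.04% for genes lower in WAT by at least 1 unit and 4.12% for genes higher by as much. It stood in 5 of 14 ATP synthase promoters, 2 of 15 of the citric acid cycle and 2 of 32 of complex I. These shares are descriptions, and the part of base composition in them was not tested.

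Related genes separated within families. Cox7a1 fell by 5.76 in WAT, but its relatives Cox7a2 and Cox7a2l fell by only 1.22 ± 0.09 and 0.66 ± 0.09. Cpt1b fell by 4.97, while the probes of Cpt1a and Cpt1c lay close to background in both tissues. Of 4 pyruvate dehydrogenase kinases, Pdk4, Pdk2 and Pdk1 were lower in WAT and Pdk3 was higher, by 0.47 ± 0.05. Of the perilipins, which coat lipid droplets, Plin5 had 7.90, 7.78, 7.73 and 7.82 in WAT, against 10.82, 11.01, 10.72 and 10.78 in BAT, a difference of -3.03 ± 0.14. Plin4 went the other way, with 14.40, 14.54, 14.49 and 14.49 in WAT, against 12.44, 12.52, 12.27 and 12.56 in BAT, a difference of 2.03 ± 0.09. Plin2, Plin3 and Plin1 were lower in WAT, with differences of -1.60, -1.06 and -0.54. Cidec, which enlarges droplets in white fat, was higher in WAT by 1.39 ± 0.12, against -5.61 ± 0.52 for Cidea. Elovl6 and Elovl3, which lengthen fatty acids, were lower in WAT, with differences of -2.66 ± 0.36 and -1.16 ± 0.25, whereas Elovl1 was higher by 1.30 ± 0.07. The creatine kinase Ckb was higher in WAT by 0.88 ± 0.15, and the calcium pump Atp2a3 by 1.12 ± 0.12.

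**Figure D3:**
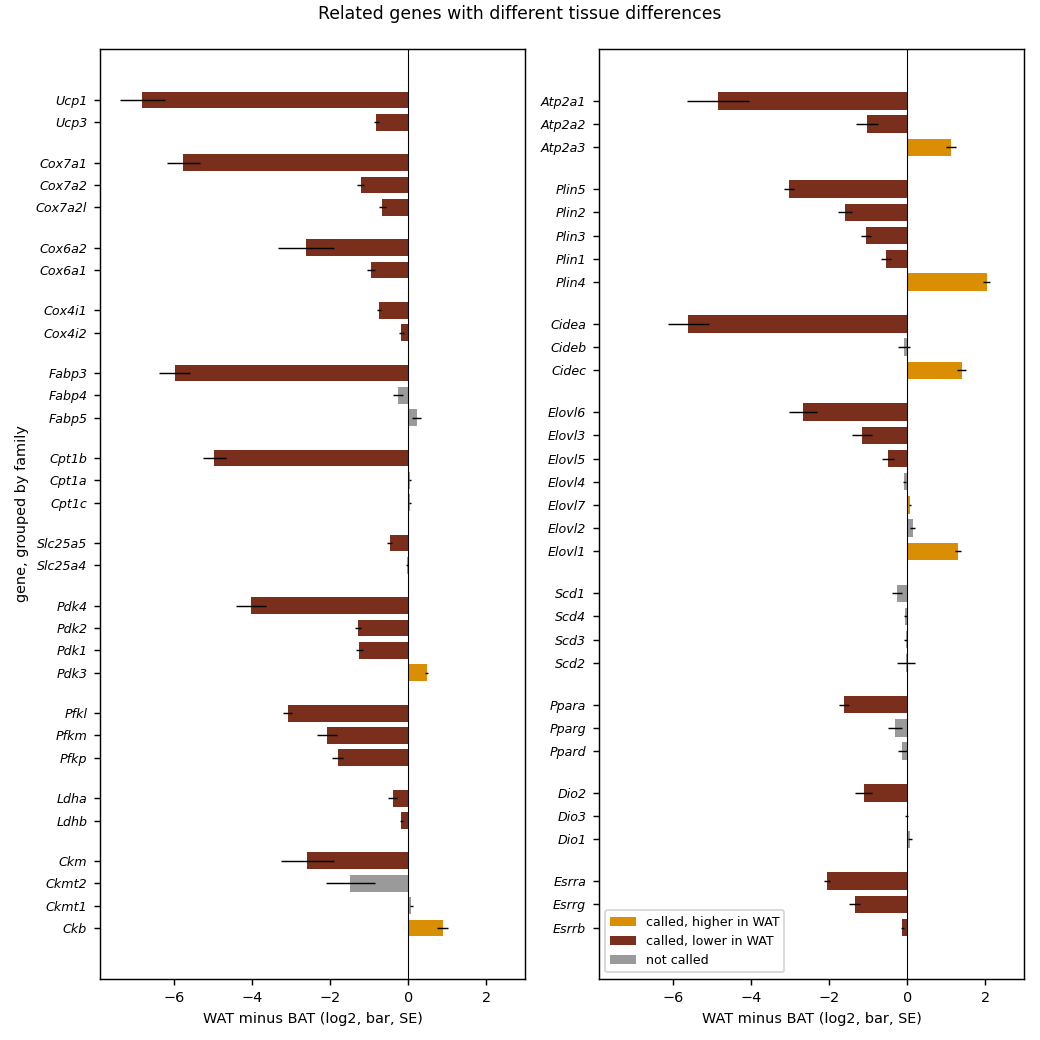
Difference WAT minus BAT (log2 signal) of tested members of families of related genes, as bars from 0 with SE, n = 4 arrays per tissue. Grey bars were not called. Within the pyruvate dehydrogenase kinases, perilipins, CIDE proteins and elongases, members lie on both sides of 0.

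Glucose and lipid synthesis genes were lower in WAT in most cases. Of 15 genes of glycolysis and glucose transport 12 were lower and 0 higher, with a median of -1.33. Pfkl, a subunit of phosphofructokinase, had 10.51, 10.04, 10.29 and 10.31 in WAT, against 13.18, 13.65, 13.42 and 13.24 in BAT, a difference of -3.09 ± 0.12. Pkm, a pyruvate kinase, fell by 2.58 ± 0.16, and Slc2a4, the insulin-responsive glucose transporter, by 1.19 ± 0.10. Of 16 lipogenic genes 11 were lower and 0 higher, with a median of -0.83. Fasn, fatty acid synthase, had 8.64, 8.20, 7.81 and 7.76 in WAT, against 9.31, 10.03, 9.47 and 9.47 in BAT, a difference of -1.47 ± 0.20. Acly, which makes cytosolic acetyl-CoA, had 14.15, 12.62, 12.91 and 12.51 in WAT, against 14.54, 14.67, 14.47 and 14.44 in BAT. WAT replicate 1 stood apart for Acly, and 10 of the 16 lipogenic genes had their highest WAT value in replicate 1 and their lowest in replicate 4, the order of the liver transcripts. The count of lower lipogenic genes was also 11 without WAT replicate 1 and BAT replicate 4, with a median of -1.14. It was 9 without BAT replicate 2, without WAT replicate 3 or with the replicate number as a block. Without WAT replicate 4 it was 8, with a median of -0.68. Mlxipl, a glucose-sensing transcription factor, fell by 2.08 ± 0.19 in WAT, and Scd1, a desaturase, was near the top of the scale in both tissues and not called (-0.27 ± 0.12, adjusted p 0.0983).

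Genes shared by all fat cells split evenly. Of 20 general adipocyte genes 7 were higher in WAT and 6 lower, with a median of -0.01. Cav1, the coat protein of caveolae, was higher in WAT by 1.47 ± 0.10, and Mgll, a monoglyceride lipase, by 0.56 ± 0.10. Gpd1, which makes glycerol phosphate, fell by 2.95 ± 0.20 in WAT, and the transcription factor gene Cebpb fell by 2.36 ± 0.18. Lpl, which frees fatty acids from lipoproteins, overlapped between the tissues (0.39 ± 0.16, adjusted p 0.0635) and was picked after its values were seen.

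Lists of further lipid and amino acid pathways held calls in both directions. Of 20 genes of triglyceride synthesis and droplet proteins 12 were lower in WAT and 4 higher, with a median of -0.53. Agpat2, an acyltransferase of triglyceride synthesis, fell by 1.80 ± 0.25 in WAT. Of 19 genes of lipolysis and fatty acid uptake 5 were lower and 4 higher, near the 20.4% and 23.3% of all genes, with a median of 0.05. Angptl4, a secreted inhibitor of lipoprotein lipase, had 13.21, 13.81, 13.57 and 13.54 in WAT, against 12.67, 12.73, 11.91 and 12.35 in BAT, a difference of 1.12 ± 0.28. G0s2, an inhibitor of the first triglyceride lipase, went the other way at -1.06 ± 0.31, and was not called without WAT replicate 1 and BAT replicate 4 (-0.88, adjusted p 0.0798). Slc27a2, a fatty acid transporter abundant in liver, had 10.38, 8.97, 8.47 and 7.85 in WAT, the order of the liver transcripts, against 11.32 to 11.96 in BAT.

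Among 19 genes that break down branched-chain amino acids 10 were lower in WAT and 3 higher, with a median of -0.19. Without BAT replicate 2 the median was -0.33, with 11 lower and 2 higher, and without WAT replicate 3 1 was higher. With the replicate number as a block 8 were lower and 0 higher. Bckdha, a catalytic subunit of the branched-chain ketoacid dehydrogenase, fell by 1.35 ± 0.12 in WAT, and so did Bckdk, the kinase that restrains it, by 1.51 ± 0.10. Bcat2, the aminotransferase of the first step, was higher in WAT by 0.48 ± 0.14. Of 15 genes of creatine and calcium cycling 7 were lower and 3 higher. Its members Ckm, Atp2a1 and Ryr1 are also on the skeletal muscle list. In 5 of the 15 the highest BAT value was in replicate 4 and the lowest in replicate 2, the order of the muscle transcripts described further on. Without WAT replicate 1 and BAT replicate 4, 5 were lower and 3 higher. Gamt, which makes creatine, had 9.51, 9.75, 9.62 and 8.65 in WAT, against 7.87, 7.92, 7.50 and 7.52 in BAT, a difference of 1.68 ± 0.17. Itpr2, a calcium release channel, fell by 1.84 ± 0.15 in WAT.

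Genes of white fat identity were higher in WAT. Of 23 tested, 21 were higher and 0 lower, with a median of 1.27. Slc7a10, an amino acid transporter used as a white fat surface marker, had 10.36, 10.99, 11.02 and 10.78 in WAT, against 7.76, 7.91, 7.78 and 7.62 in BAT, a difference of 3.02 ± 0.14. Nnat, a small membrane protein from an imprinted gene, was higher by 2.88 ± 0.19 with its brightest probe, while its dimmest probe gave -0.002 near the floor of the scale. Mest, an imprinted gene that tracks fat cell growth, had 9.27, 10.22, 10.34 and 8.42 in WAT, against 7.05 to 7.14 in BAT. BAT was at background, so Mest was at least 5.14-fold higher in WAT, and the WAT arrays spanned nearly 2 units.

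Hox genes, homeobox factors that mark body position, were called at shares near those of all genes. Of 27 Hox genes tested 8 were higher in WAT and 7 lower, against 23.3% and 20.4% of all genes, with a median of 0.02. Hoxc9 had 9.62, 9.48, 9.40 and 9.80 in WAT, against 7.06 to 7.10 in BAT. It was at background in every BAT array and at least 5.19-fold higher in WAT. Hoxc10 was also at background in BAT and at least 1.72-fold higher in WAT, and Hoxc6 was higher by 1.15 ± 0.20. Hoxa5 went the other way, with 8.21, 8.28, 8.11 and 8.52 in WAT, against 9.90, 9.57, 9.78 and 9.66 in BAT, a difference of -1.44 ± 0.13. Hoxa4 fell by 0.88 ± 0.10 in WAT and Hoxb4 by 0.44 ± 0.11, while Hoxd4 was higher by 0.80 ± 0.08. Of 23 other patterning factors 8 were higher and 5 lower, against the same shares of 23.3% and 20.4%, and 5 were higher without BAT replicate 2. Gata6 was higher by 1.20 ± 0.12 and Meox2 by 0.79 ± 0.14, while Zic1, a marker of interscapular brown fat, was at background in WAT and at least 1.43-fold lower there. Irx3 fell by 0.57 ± 0.10.

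**Figure D4:**
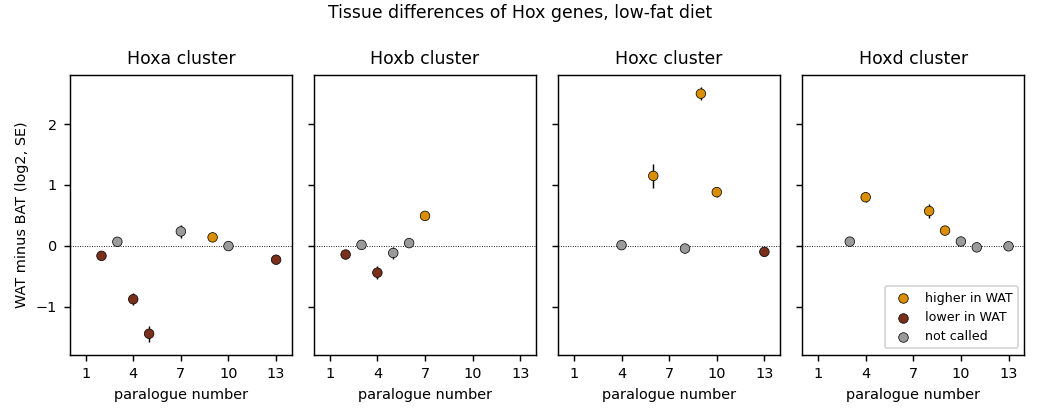
Difference WAT minus BAT (log2 signal) with SE of the tested Hox genes against their number in each cluster, n = 4 arrays per tissue. Hoxc9 is the highest point, and Hoxa4 and Hoxa5 are the lowest.

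Most matrix and fibroblast genes were higher in WAT. Of 28 matrix genes 26 were higher and 1, Mgp, lower, with a median of 1.33. Col6a1, a chain of collagen VI, had 12.02, 12.49, 12.42 and 11.60 in WAT, against 9.55, 9.82, 9.21 and 9.55 in BAT, a difference of 2.60 ± 0.19. Timp2, an inhibitor of matrix proteases, was higher by 2.78 ± 0.21, and Col15a1 and Col18a1, of basement membranes, were both higher by 2.66. All 12 markers of fibroblasts and adipose progenitors were higher in WAT, with a median of 1.76. Dpt, a matrix protein of fibroblasts, had 11.91, 12.20, 12.39 and 11.69 in WAT, against 9.02, 9.02, 8.71 and 9.17 in BAT, a difference of 3.07 ± 0.19. Dpp4, a surface protease of early progenitors, was at background in BAT and at least 3.34-fold higher in WAT. The dimmest kept probe of Dpp4 gave -0.007, so the rise rests on the brighter probe.

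Of 18 macrophage genes 16 were higher in WAT and 0 lower, with a median of 1.46, and the list mean was 9.13 to 9.41 per WAT array and 7.72 to 7.90 per BAT array. Lyz2, a lysozyme of myeloid cells, had 12.97, 11.49, 11.88 and 11.88 in WAT, against 9.18, 8.84, 8.65 and 8.56 in BAT, a difference of 3.25 ± 0.27. Mrc1, the mannose receptor of resident macrophages, was higher by 2.23 ± 0.16. Of 14 genes of MHC class II and antigen presentation 11 were higher and 0 lower, with Cd74, the invariant chain, at 2.28 ± 0.16. Of 18 complement and coagulation genes 16 were higher and 0 lower, with a median of 1.54. C2, a component of the classical pathway, had 12.13, 11.88, 11.69 and 12.59 in WAT, against 8.26, 8.67, 8.28 and 8.06 in BAT, a difference of 3.75 ± 0.29. Cfp, properdin, was higher by 3.13 ± 0.19 and F13a1, a clotting factor subunit of macrophages, by 2.94 ± 0.19. The liver-made factors C9 (9.12, 7.86, 7.60 and 7.33 in WAT) and F10 (8.73, 7.75, 7.62 and 7.33 in WAT) were highest in WAT replicate 1 and lowest in replicate 4, unlike C2 and Cfp. Both passed the test (adjusted p 0.0446 and 0.0169) but not without WAT replicate 1 (0.208 and 0.0825), and they were picked after their values were seen.

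Markers of other cells that the samples could hold were called in part. Their counts stand against 23.3% of all genes higher and 20.4% lower in WAT, and several lie near those shares. Of 11 mesothelial genes, which mark the lining of the body cavity, 9 were higher in WAT, and 6 were without WAT replicate 1. Upk3b, a mesothelial membrane protein, had 10.07, 9.31, 9.35 and 9.08 in WAT, against 7.16 to 7.25 in BAT, a difference of 2.25 ± 0.20. Of 14 endothelial genes 8 were higher and 0 lower, none by 1 unit or more, and of 8 mast cell genes 5 were higher and 1 lower. Cpa3, a mast cell protease, was at background in BAT and at least 3.3-fold higher in WAT. Of 9 smooth muscle and pericyte genes 5 were higher and 1 lower, with Acta2, smooth muscle actin, higher by 2.06 ± 0.26. Nerve and Schwann cell genes had 2 of 8 higher and 2 lower. These small counts moved by 1 gene with single arrays, as 1 endothelial gene was lower without BAT replicate 4, 0 mast cell genes were lower without WAT replicate 2 or 3 or BAT replicate 2 or 3, and 1 nerve gene was higher without WAT replicate 4 or BAT replicate 4. T and natural killer cell genes (2 of 11 higher), B cell genes (2 of 5 higher), lymph node and thymus genes (2 of 8 higher) and red cell and blood genes (1 of 9 higher) had 0 lower. Pancreas genes had 1 of 5 higher, cartilage and bone genes 1 of 6 lower and epididymis and testis genes 1 of 5 lower; leaving out 1 array added 1 pancreas gene (WAT replicate 1 or 2), 1 epididymal gene (BAT replicate 4) or 1 cartilage gene (BAT replicate 3). The epididymal list mean was 7.12 to 7.16 in WAT, at the level of background.

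Liver transcripts stood in the WAT arrays. Of 22 liver cell genes tested 17 were higher in WAT and 0 lower, with a median of 2.53. The list mean was 11.55, 10.21, 10.01 and 9.20 in WAT replicates 1 to 4, against 7.60 to 7.89 per BAT array. For 20 of the 22 genes the highest WAT value was in replicate 1 and the lowest in replicate 4. Ttr, the plasma carrier of thyroxine and retinol-binding protein, had 13.64, 12.06, 11.80 and 10.65 in WAT, against 7.25, 7.50, 7.11 and 7.89 in BAT. The WAT arrays spanned 2.98 units in the same order as the list mean, and the difference was 4.60 ± 0.68 (adjusted p 1.27e-05). Apoa2, a high-density lipoprotein protein, had 14.13, 12.38, 11.92 and 10.71 in WAT, against 7.44, 7.74, 7.24 and 8.07 in BAT, a difference of 4.66 ± 0.76. Mup2 and Mup3, of the major urinary proteins, differed by 5.69 ± 0.74 and 5.06 ± 0.68, though their probes may read other members of that family. Cyp2e1, a cytochrome P450 of liver and fat, did not share the order, with 14.23, 14.23, 14.29 and 14.51 in WAT, against 9.84, 11.06, 10.84 and 10.34 in BAT. The only probe of Alb, the albumin gene, read 7.06 to 7.12 in WAT and 7.04 to 7.10 in BAT, and that of Tat read at background too, so neither defining gene could be followed.

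Skeletal muscle transcripts stood in the BAT arrays. Of 27 muscle genes tested 16 were lower in WAT and 0 higher, with a median of -1.86, and 13 were at background in all WAT arrays. The list mean was 7.46 to 7.52 per WAT array, against 9.62, 8.60, 9.57 and 10.35 in BAT replicates 1 to 4. For 23 of the 27 genes the highest BAT value was in replicate 4 and the lowest in replicate 2. Atp2a1, the calcium pump of fast muscle, had 7.12, 7.19, 7.13 and 7.17 in WAT, against 12.29, 10.48, 12.11 and 13.15 in BAT. Only 2 of 4 WAT arrays were above background, and the difference was -4.86 ± 0.80 (adjusted p 4.72e-05). Pvalb, a calcium buffer of fast fibres, fell by 4.69 ± 0.76 in WAT, and Tcap, a protein of the sarcomere's Z-disc, was at background in WAT and at least 9.45-fold lower. Ckm, muscle creatine kinase, was at background in WAT and at least 5.59-fold lower. Acta1, skeletal actin, had 10.23, 10.21, 11.49 and 9.66 in WAT, against 12.67, 11.07, 12.50 and 13.66 in BAT, and its groups overlapped (-2.08 ± 0.86, adjusted p 0.0635).

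**Figure D5:**
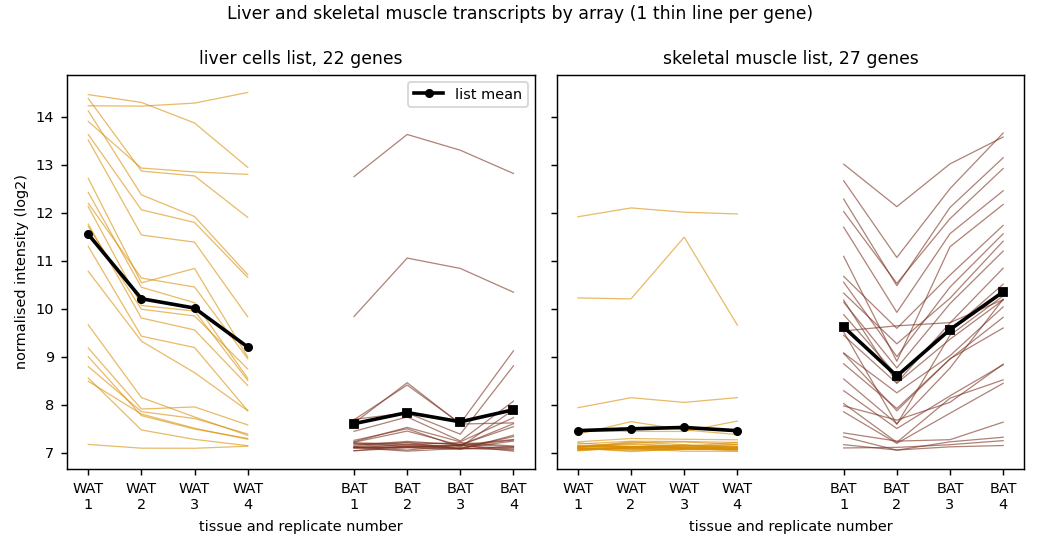
Signal (log2) of liver cell genes and skeletal muscle genes on each of the 8 arrays, WAT left of BAT, with 1 thin line per gene and the list mean in black; replicates have no order. Of 22 liver genes 20 are highest in WAT replicate 1 and lowest in WAT replicate 4, and of 27 muscle genes 23 are highest in BAT replicate 4 and lowest in BAT replicate 2.

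Both counts rest in part on single arrays. Without WAT replicate 1 and BAT replicate 4, an alternative chosen after seeing the data, 11 liver genes were higher in WAT with a median of 1.93, and 11 muscle genes were lower with a median of -1.57. Under the same omission the brown identity list had 25 lower, complex I 34, the white identity list 20 higher, the matrix list 26, macrophages 16 and complement 14. Over all genes higher in WAT by at least 1 unit, 78 of 616 (12.7%) were highest in WAT replicate 1 and lowest in replicate 4, against 8.95% of all genes. Among the 82 of them whose WAT values spanned at least 1 unit, 53 had that order. Of 538 genes lower by as much, 65 (12.1%) had the order of the muscle genes in BAT, against 11.4% of all genes, and 27 of the 54 whose BAT values spanned at least 1 unit had it. The orders were read from the liver and muscle lists, whose members were not set aside in these counts. At least 1 unit was reached by 16 liver genes higher and 16 muscle genes lower in WAT. The counts are thus no separate evidence, and no share over all genes of such a span stands beside the 53 and the 27. Genes outside the liver list with its order included Serpina1d (13.40, 11.44, 11.21 and 9.93 in WAT, against 7.09 to 7.74 in BAT) and Mup6 (13.28, 11.59, 11.21 and 10.32 in WAT, against 7.29 to 7.71 in BAT). Cox6a2, the muscle isoform of a cytochrome c oxidase subunit, was at background in WAT and had 9.91, 8.42, 9.84 and 10.77 in BAT, the order of the muscle genes. Fabp3 and Cox8b, which muscle also expresses, were lowest in BAT replicate 2 as well, with 13.43, 12.60, 13.32 and 13.30 for Fabp3 and 14.58, 13.95, 14.63 and 14.46 for Cox8b in BAT. Cox7a1, another such gene, was highest there, and Cox7a1 and Cox8b lay near the top of the scale. The part of liver and muscle transcripts in the other differences was not tested gene by gene.

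Whether the tissue difference was the same on the other diets was tested as an interaction. On the corn-oil diet the difference was another one than on the low-fat diet for 93 genes (0.652%), 62 with a higher and 31 with a lower value of WAT minus BAT. Of these, 78 were also called between the tissues on the low-fat diet, against 43.7% of all genes. Both tests use the same 8 low-fat arrays, so the overlap is not independent. Ubd, a ubiquitin-like protein induced by inflammation, differed by 3.10 between WAT and BAT on corn oil and by 0.69 on the low-fat diet, an interaction of 2.41 ± 0.22 (adjusted p 8.97e-06). Its signal ran over 10.14 to 11.04 in WAT on corn oil, against 7.66 to 8.05 in WAT on the low-fat diet, while BAT stayed within 7.14 to 7.45 on both. Tph2, a tryptophan hydroxylase, ran over 10.01 to 11.13 in WAT on corn oil, against 7.28 to 8.12 in WAT on the low-fat diet. Low-fat BAT was at background (7.06 to 7.13), so the low-fat difference is a bound of at least 0.60 and the interaction, 2.60 ± 0.34 as fitted (adjusted p 0.000816), has no exact size. That low-fat difference was not called without WAT replicate 2 or 3 (adjusted p 0.0816 and 0.0825). Stambpl1, Kcnj14 and Septin9 also had interactions above 0, at 0.96, 0.51 and 1.35 as fitted, Kcnj14 with low-fat BAT at background, and Rprml and Nnat had interactions below 0, at -0.58 and -1.52. On the EPA/DHA diet 1 gene (0.00701%), Tspan18, was called, with a difference of -0.98, against -1.75 on the low-fat diet. Both counts move with single low-fat arrays: 30, 47 and 57 genes were called for corn oil without WAT replicate 4, WAT replicate 1 and BAT replicate 3. For EPA/DHA, limma called 2 genes without WAT replicate 3 and 0 without WAT replicate 2, BAT replicate 1 or BAT replicate 3, where 918 to 1057 genes had an unadjusted p below 0.05. Ucp1 and Lep, with differences of -6.22 and 3.28 on corn oil, -5.91 and 4.69 on EPA/DHA and -6.81 and 5.02 on the low-fat diet, had no called interaction (adjusted p 0.186 to 0.959).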

How the data were processed

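Total RNA of white and brown adipose tissue was hybridised to Illumina mouse bead arrays, 1 colour, with 24 arrays in all. The authors deposited log2 values of 45281 probes, made with lumi 2.18.0 per the submitters' processing notes; whether the scale is plain or variance-stabilised log2, and the background step, are not given in the sources used here. Sorted columns differed by at most 0.0069, so the deposited log2 values were already quantile-normalised and were not normalised again.

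Groups were taken from the titles and tissue labels. GEO's platform annotation gave 1 symbol to 34885 probes, several to 18 and none to 10378; 34818 were matched to RefSeq symbols, which named 19053 genes. Some listed genes had no named probe and were not analysed here. Probes were kept where their mean over the 12 arrays of either tissue was above the 40th percentile (a level of 7.11), which left 29493 probes and 14262 genes. A linear model with 1 mean per tissue and diet was fitted with limma 3.58.1 (lmFit, eBayes; R 4.3.3) to all 24 arrays (18 residual degrees of freedom, 1.88 prior), and p-values were adjusted by Benjamini-Hochberg over all kept probes. Each gene stands for its probe with the highest mean over all arrays. Tables and figures were made with Python 3.11.15, numpy 2.4.6, pandas 2.3.3 and matplotlib 3.10.9. Data simulated for the low-fat comparison over 29493 probes gave recovery of 89.3%, 98.25% and 99.8% of probes changed by 0.5, 1 and 2 log2 units, with 5.18% false calls. The noise was normal, independent between probes and equal in both tissues, with 200 probes changed per size. On the real arrays 37.5% of probes were called, and a gene's median range was 0.132 in WAT and 0.211 in BAT. The rates thus hold for the simulated setting and were not measured on these arrays.

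The gene lists and the members were chosen with earlier results of these data known. Some genes stand on more than 1 list, so counts of related lists and of their promoters are not independent. Examples are C1qa, C1qb and C1qc (macrophages and complement), Ctss (macrophages and MHC class II) and Dcn, Lum, Col1a1 and Col3a1 (matrix and fibroblasts). Named by rule were the 12 largest differences each way outside the liver and muscle lists, up to 6 called members of each list and any that went against it, all family members, 6 fixed genes (Lep, Adipoq, Ucp1, Fasn, Scd1 and Mest) and the 5 smallest adjusted p-values of each interaction. Atp5g2, Bmp8b, C9, F10, Irf4, Kcnk3, Lpl, Ppargc1a, Ppargc1b, Prdm16, Tat and Uqcrfs1 were named after their values had been seen. Promoters came from a RefSeq table (GRCm38.p6) that held 11449 of the genes tested, and none from chromosome 18 is printed.

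No label says that arrays of a group came from separate extractions, so p-values measure the spread between these samples, which may be technical. The number of arrays limits the precision. Alternatives covered the filter, the normalization, the prior, array weights, the samples fitted, the replicate number as a block, liver and muscle scores as covariates, the choice of probe, and each low-fat array left out. The values were already quantile-normalised, so the normalization alternatives could change little. Renewed quantile normalization called 5091 genes, as the 8 low-fat arrays alone did, and median centring 6237.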

Additional observations from a re-analysis of the deposited data

Results flagged for a closer look

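Within groups of 4 arrays, a value was singled out where its gap to the nearest other array, as a share of the whole range, passed Dixon's critical value. This was so in 15 of 308 groups of 154 named genes, near the 1 in 20 that the critical value allows. Of the 15, 5 lay in WAT replicate 1, 6 in BAT replicate 2 and 4 in other arrays. Whether chance accounts for them was not tested. In WAT replicate 1 the share of the range was 0.935 for Acot11, 0.850 for Adipoq, 0.831 for Gpd1, 0.887 for Slpi and 0.870 for Ucp1. Adipoq was the lowest of the 4 there, at 14.14, and the other 4 genes were the highest. In BAT replicate 2, the array with the lowest correlation to its group, it was 0.855 for Cox7a1, 0.839 for Fabp3, 0.918 for Hoxb4, 0.861 for Pank1, 0.925 for Pkm and 0.865 for Rps12. Cox7a1, Hoxb4 and Pkm were the highest of the 4 there, at 14.46, 8.67 and 13.43, and Fabp3, Pank1 and Rps12 the lowest, at 12.60, 11.29 and 12.67. The other 4 were Lpl (0.887) and Ndufb5 (0.934) in WAT replicate 3, Pdk3 (0.875) in WAT replicate 4 and Rps4x (0.938) in WAT replicate 2. The part of liver or muscle transcripts in these values was not tested.

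The tissue difference was another one on a high-fat diet for 8 named genes, tested as an interaction in limma. Tph2 and Kcnj14 were at background in low-fat BAT, so their values are as fitted and no exact sizes. On corn oil minus low-fat it was 2.4140 for Ubd (adjusted p 8.97e-06), 0.9611 for Stambpl1 (0.000196), 0.5125 for Kcnj14 (0.000223), 2.5959 for Tph2 (0.000816), 1.3495 for Septin9 (0.00111), -0.5820 for Rprml (0.00191), -1.5150 for Nnat (0.0141) and 0.5522 for Tspan18 (0.0345). On EPA/DHA minus low-fat it was 0.7703 for Tspan18 (0.0165).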

How the results depend on the processing

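The count of genes called between the tissues, 6236, stayed within 1.5 times under all alternatives run, from 4344 with raw liver and muscle scores as covariates to 6470 with array weights, and over 5665 to 6058 with 1 low-fat array left out. After each group's mean was taken off every probe, the deviations of same-numbered WAT and BAT arrays correlated at -0.19 to 0.071 over the 3 diets. No label says that such arrays share a mouse, so the numbers were not used as pairs. With the replicate block on the 8 low-fat arrays 4363 genes were called. Genes called with at least 1 unit numbered 1154, and 732 with the dimmest kept probe. For corn oil the 93 interactions became 59 with no filter, 30 with the replicate block, and 30 to 90 with 1 array left out. For EPA/DHA the 1 interaction became 2 with array weights or the replicate block, and 0 to 2 with 1 array left out. It became 0 without WAT replicate 1 and BAT replicate 4 (limma; 1044 genes at an unadjusted p below 0.05). Of 144 named genes called, 118 stayed called in their direction under all 21 alternatives, and 141 with each array left out, the exceptions being C9, F10 and Tph2. The raw liver and muscle scores did not overlap between the tissues on the low-fat arrays, and Acta1 is itself part of the muscle score. With the scores centred within each tissue, an unplanned setting, 6439 genes were called and 0 of 154 named genes reversed. Direction reversed with raw scores as covariates for Acta1 (1.1303), Bmp8b (0.0639), C9 (-0.7736), Cpt1a (-0.0116), F10 (-0.3833), Fabp4 (0.1074) and Irf4 (0.0232). It reversed for Atp5j with the mean of its probes (-0.2440), and with the dimmest probe for Atp5j (-1.5457), Bcat2 (-0.0316), C9 (-0.0399), Dpp4 (-0.0070), Lpl (-0.0279) and Nnat (-0.0024). The cause was not tested. Values near either end of the scale limit what can be seen.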
